A study of Arabidopsis thaliana with 12 samples.

Results

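The mutant gvs1-1 was compared with the Col ecotype of Arabidopsis thaliana in mature leaves at the stage that the labels call DAE14. All arrays of both genotypes at that stage were taken, 3 of gvs1-1 and 3 of Col, which is 6 of the 12 arrays of the series. The other 6 arrays hold the same 2 genotypes, 3 arrays each, at DAE28. Every group was total RNA of the leaves 3 and 4 of soil-grown plants, which had daily cycles of 16 h light and 8 h dark and were harvested 5 h into the light, and growth lasted 23 and 37 days at the 2 stages. The design calls the samples of each group independent biological ones. DAE is not spelled out in the labels, and neither the kind of mutation nor the locus of gvs1 is given in the sources used here, so the mutated gene could not be checked in the arrays. Each RNA was labelled with Cy3 and hybridised to a 1-colour Agilent array, on which a probe's brightness stands for the abundance of its transcript.

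A mature leaf fixes carbon and spends a large share of its messenger RNA on the photosystems, which turn light into chemical energy, on the antenna proteins that feed them, and on the enzymes that bind carbon dioxide. Senescence later dismantles this apparatus and exports its nitrogen. Jasmonates, hormones made from oxidised fatty acids of the chloroplast, act in wounding, defence and senescence: the active conjugate binds the receptor COI1, which removes the JAZ repressors and frees MYC transcription factors. Brassinosteroids are growth hormones that cytochrome P450 enzymes build from plant sterols.

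At DAE14, 60 of 19152 tested loci differed between the genotypes, which is 0.313% of the loci. Of these, 9 were higher in gvs1-1 (0.047%) and 51 were lower (0.266%), by limma's test with a Benjamini-Hochberg adjusted p under 0.05 over all loci. Values are log2 signals relative to each array's 75th percentile, and 1 unit is a 2-fold difference. Among the 9 higher loci 8 differed by at least 2-fold, whereas 30 of the 51 lower loci differed by less than that, down to 0.53. In all 60 loci the 3 values of gvs1-1 lay apart from the 3 values of Col; over all tested loci such a separation occurred in 12.2% with gvs1-1 higher and in 15.7% with gvs1-1 lower. An unadjusted p under 0.05 was found for 3197 loci (16.7%). The median difference over all loci was 0.01. At DAE28 the same test passed 6340 loci (33.1%).

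The layout of the slides limits these values. The 3 Col DAE14 arrays lay on slide 1, gvs1-1 replicates 1 and 2 on slide 2, and gvs1-1 replicate 3 on slide 3, so at this stage each slide held 1 genotype. Slide 1 and slide 3 were scanned on 1 day and slide 2 on another. Scan day 1 held all 3 Col arrays and only replicate 3 of gvs1-1, so the value within that day is replicate 3 against the same Col mean. In 52 of the 60 loci that difference was smaller, with a median size of 0.81 against 0.95; its sign was fixed by the lack of overlap. A fit with slide as a fixed block, which the DAE28 arrays make possible, passed 6 loci, of which 2 were among the 60, and a fit of the 6 DAE14 arrays alone passed 2, AT3G55920 and AT3G05170. In the slide fit, slides 1 and 2 are tied only by Col DAE28, with replicate 1 on slide 1 and replicates 2 and 3 on slide 2. All values with slide as a fixed block thus depend on that 1 array of slide 1. The count of loci also rested on single arrays: 274 loci passed without gvs1-1 DAE14 replicate 3 and 237 without Col DAE28 replicate 1, and 5 passed without Col DAE14 replicate 3 or without gvs1-1 DAE14 replicate 2. Correlations over all tested loci were 0.982 to 0.992 between arrays of 1 genotype, the 75th percentile of the signal was 700.0 to 891, and the share of spots well above background was 63.8% to 69.6%.

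The loci with the largest excess in gvs1-1 were close to silent in Col. AT3G55920 read -6.56, -6.77 and -6.57 on the Col arrays and -0.07, -0.14 and -0.45 on the gvs1-1 arrays. It was not well above background on any Col array and was at least 53.6-fold higher in gvs1-1 (measured difference 6.42 ± 0.12, SE of the fit with n = 3 arrays on each side; limma adjusted p = 1.89e-09). After normexp background correction the difference was 3.51 and did not pass (adjusted p = 0.123), and in the authors' deposited table it was 4.08, both under this bound, which holds for the processed signal alone. A bound of this kind sets the mean of the bright group against, on each dim array, the higher of the lowest signal well above background and the locus's own signal. AT3G05170 showed the same pattern. Its Col values were -7.05, -7.42 and -7.00 and its gvs1-1 values -1.62, -1.57 and -1.67, at least 20.4-fold higher (difference 5.54 ± 0.16; limma adjusted p = 7.72e-08), with 2.16 after normexp (adjusted p = 0.274) and 2.76 in the authors' deposited table. These 2 loci had the least spread among the large differences, and both also passed with slide as a block (6.43 and 6.12) and within scan day 1 (6.19 and 5.49). The annotation table used here names neither of them.

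MRD1, whose name stands for mto1 responding down 1 after the methionine-accumulating mutant in which it was found, read -5.25, -2.14 and -4.85 in Col and 1.01, 0.80 and 0.87 in gvs1-1. The gvs1-1 arrays lay close together, while Col replicate 2 was several times brighter than the other 2 Col arrays and still below every gvs1-1 array. The difference was 4.97 ± 0.64 (limma adjusted p = 0.0195), and it was 4.95 within scan day 1. AT5G03090 was well above background on all gvs1-1 arrays (-4.05, -4.31 and -3.54) and on no Col array (-8.01, -6.17 and -7.98), at least 3.999-fold higher in gvs1-1. AT3G46700 and AT3G33528 were likewise above background in gvs1-1 only, by at least 2.37-fold and at least 1.85-fold. In the authors' deposited table AT5G03090, AT3G46700 and AT3G33528 had differences of 1.03, 0.78 and 0.60. Each lies under its bound, which holds for the processed signal alone. However, AT3G33528 passed in none of the 15 alternative settings other than leave-outs of 1 array. AT4G34540, measured on all arrays, read -0.35, -0.002 and -0.004 in Col and 1.28, 3.10 and 1.76 in gvs1-1, a difference of 2.17 ± 0.37 (limma adjusted p = 0.0498).

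**Figure D1:**
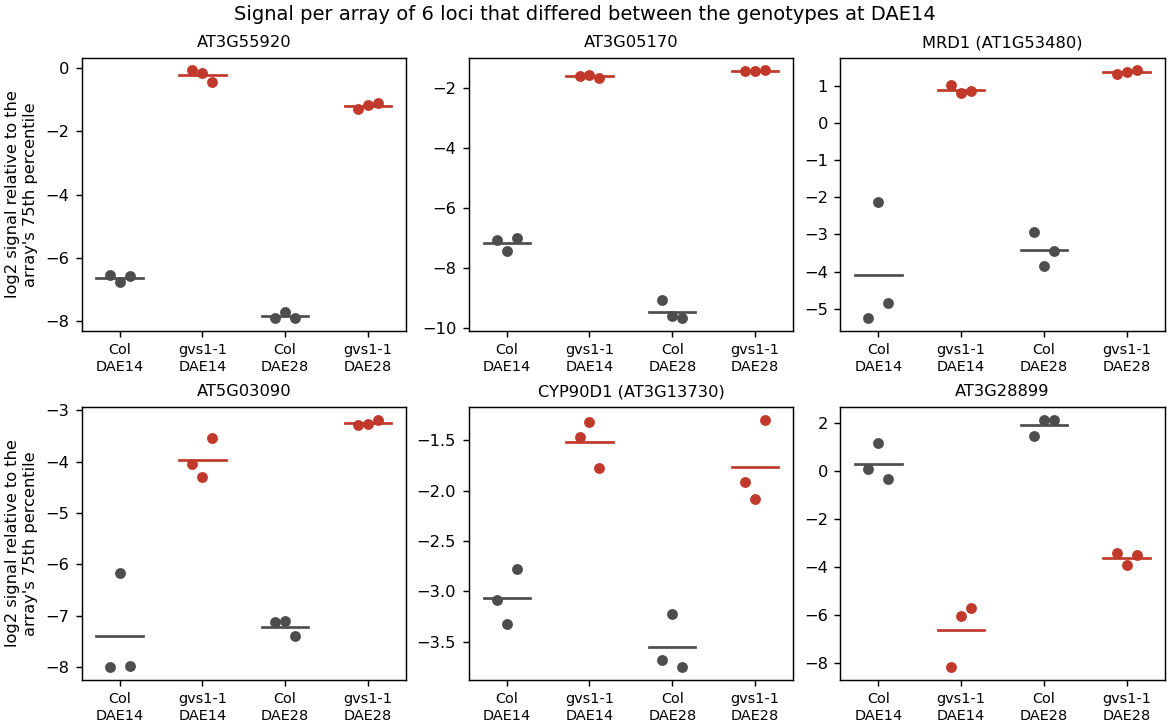
Log2 signal relative to the array's 75th percentile (vertical axis, its range set per panel) of 6 loci in the 4 groups, with 1 point per array and a line at the mean of 3 arrays. AT3G55920 and AT3G05170 lay more than 5 units higher on every gvs1-1 array than on any Col array of the same stage, and AT3G28899 lay lower on every gvs1-1 array.

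CYP90D1, a cytochrome P450 of brassinosteroid synthesis, was the other higher locus with a symbol. It read -3.08, -3.33 and -2.78 in Col and -1.46, -1.32 and -1.77 in gvs1-1. The groups did not overlap, and the difference was 1.54 ± 0.24 (limma adjusted p = 0.0345). None of the other 12 measured genes of brassinosteroid synthesis and signalling passed, 10 of the 13 had a negative difference, and the median was -0.16. BR6OX2, which catalyses the last step to brassinolide, read -1.14, -0.98 and -1.09 in Col and -2.36, -2.29 and -1.62 in gvs1-1 (difference -1.02 ± 0.36; unadjusted p by limma 0.0178). BZR1, a transcription factor of the pathway, had a difference of -0.33 ± 0.13, and its 1 other probe had 0.12.

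The largest deficit in gvs1-1 was that of AT3G28899, which read 0.10, 1.17 and -0.32 in Col and -8.19, -6.06 and -5.69 in gvs1-1. It was above background on all Col arrays and on 2 of the 3 gvs1-1 arrays, and it differed by -6.96 ± 0.60 (limma adjusted p = 0.00222). Together with AT3G05170, AT3G55920 and the aldolase gene FBA2 it was 1 of 4 loci that passed whichever of the 12 arrays was left out. TIM23-3, a subunit of the translocase that carries proteins through the mitochondrial inner membrane, was above background on all Col arrays (-4.33, -4.40 and -4.70) and on no gvs1-1 array (-8.53, -8.34 and -6.52), at least 3.94-fold lower in gvs1-1. In the authors' deposited table its difference was -0.62 (limma adjusted p = 0.115), under this bound, which holds for the processed signal alone. TIM23-3 passed in 1 of the 15 alternative settings other than leave-outs of 1 array. None of the other 9 measured genes of mitochondrial protein import passed, and 8 of the 10 had a positive difference, among them TOM40, the pore of the outer membrane, with 0.40 ± 0.13, and the receptor TOM20-2 with 0.34 ± 0.14.

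ARI13, of the ARIADNE family of ubiquitin ligases, was also above background in Col only, at least 3.32-fold. In the authors' deposited table its difference was -0.47 (limma adjusted p = 0.130), again under the bound from the processed signal. AT2G24780 and AT3G50540 were above background on 1 Col array each and on no gvs1-1 array. Their bounds were 1.71-fold and 1.27-fold. These are not minimum folds, because the Col mean includes readings not above background. AT3G50540 passed in 1 of the 15 alternative settings other than leave-outs of 1 array. AT5G39970, AT3G08810 and AT3G06830 passed although they were above background on no DAE14 array of either genotype, so that no fold is given for them. They entered the test through DAE28, where they were above background on every Col array. AT3G08810 was also above background on every gvs1-1 DAE28 array. AT3G07820 was above background on 5 of the 6 arrays and differed by -2.82 ± 0.48.

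Among annotated genes measured on all arrays, GTC2, listed as a member of global transcription factor group C, had the largest deficit, -1.97 ± 0.32. HKL1, a hexokinase-like protein, read 1.09, 0.58 and 0.93 in Col and -0.53, -0.69 and -0.27 in gvs1-1. All gvs1-1 values lay below all Col values, and the difference was -1.36 ± 0.16 (limma adjusted p = 0.0135); none of the other 9 measured genes of hexokinases and sugar sensing passed. NSP2, a specifier protein that steers glucosinolate breakdown towards nitriles, read -3.21, -3.29 and -3.63 in Col and -4.67, -5.06 and -4.34 in gvs1-1 (difference -1.32 ± 0.18; limma adjusted p = 0.0236). PHR1, here the photolyase that repairs ultraviolet-induced pyrimidine dimers, read -3.10, -3.91 and -3.82 in Col and -4.99, -5.54 and -4.78 in gvs1-1 (difference -1.49 ± 0.25; limma adjusted p = 0.0498).

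The other annotated deficits were smaller and had various roles. ARP9, an actin-related protein, differed by -1.02 ± 0.17, SIGE, a sigma factor of the plastid RNA polymerase, by -0.95 ± 0.16, and the transcription factor GATA10 by -0.91 ± 0.14. MIPS1, which makes inositol phosphate from glucose phosphate, differed by -0.89 ± 0.13, FP6, a farnesylated metal-binding protein, by -0.88 ± 0.14, and the abscisic acid kinase gene OST1 by -0.86 ± 0.15. In the authors' deposited table the sign turned for OST1 (0.02) and GATA10 had -0.06, and the 2 other probes of GATA10 had a mean difference of -0.40. PPa2, a soluble pyrophosphatase, and IAA12, an auxin-responsive repressor also called BODENLOS, differed by -0.76 ± 0.12 and -0.53 ± 0.08. AT3G28550 (-1.52 ± 0.18), AT3G55890 (-1.88 ± 0.22), AT2G20870 (-1.18 ± 0.18), AT5G67390 (-1.06 ± 0.17) and AT1G31920 (-1.03 ± 0.15) have no symbol in the annotation table.

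The remaining loci past the threshold were named after their values were seen. GGT1, an aminotransferase of photorespiration, THI1, which makes the thiazole part of vitamin B1, and FRO6, a ferric reductase, had -0.80 ± 0.11, -0.73 ± 0.11 and -0.56 ± 0.08. After quantile normalization these values were -0.28, -0.03 and -0.09. In the authors' deposited table they were -0.12, 0.08 and -0.73. KCR1, the ketoacyl reductase of fatty acid elongation, the kinase gene WNK6, the RING protein gene BRIZ2 and KMS1 had -0.55 ± 0.08, -0.67 ± 0.11, -0.60 ± 0.10 and -0.68 ± 0.11, and by quantile they stayed between -0.67 and -0.54. AT2G07732, AT3G01300, AT3G51950 and AT5G06120 lay between -0.77 and -0.57, and the higher locus AT3G11930 had 0.71 ± 0.11.

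**Figure D2:**
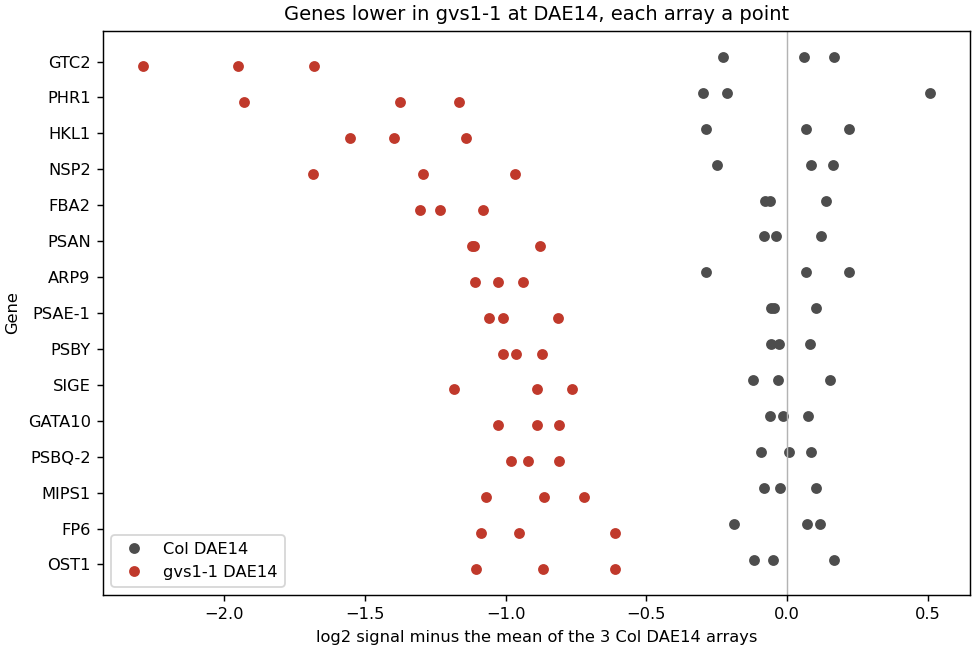
Log2 signal minus the mean of the 3 Col DAE14 arrays (horizontal axis) for the 15 annotated genes with the largest deficits in gvs1-1 that were above background on all 6 arrays, 1 point per array. In each gene the 3 gvs1-1 points lie left of the 3 Col points.

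Photosynthesis genes made up 14 of the 51 lower loci under this scaling, and their calls depended on it. The lists of photosystem I, photosystem II, light-harvesting antenna and carbon fixation held 65 loci, all measured; 5, 4, 2 and 3 of them passed as lower and none as higher. Their median difference was -0.57, 40 had an unadjusted p under 0.05 with the lower value in gvs1-1 (10.1% of all loci did), and 6 were above 0. Their probes gave signals with a median rank at the 99.8th percentile of all loci, which describes the spots and not the amounts of transcript. After quantile normalization, which forces the arrays to 1 distribution, the median was 0.03, and in the authors' deposited table it was -0.08; none of the 65 passed in either. The median was -0.51 by median centring, -0.57 after normexp, -0.47 for gvs1-1 replicate 3 within scan day 1 and -0.93 with slide as a block. In the authors' deposited table, 9 of the 65 loci had an unadjusted p under 0.05 with the lower value in gvs1-1. The share over all loci of that table was 9%.

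FBA2, a plastid aldolase of the Calvin cycle, read 8.25, 8.45 and 8.23 in Col and 7.01, 7.08 and 7.23 in gvs1-1. The difference was -1.21 ± 0.11 (limma adjusted p = 0.00362); it was -0.52 after quantile normalization and -0.18 in the authors' deposited table, and the 3 other probes of the locus had a mean difference of -0.43. PSAN, a subunit on the lumen side of photosystem I, read 7.88, 8.09 and 7.93 in Col and 6.85, 6.84 and 7.09 in gvs1-1 (difference -1.04 ± 0.12, and -0.35 by quantile). PSAE-1 and PSAD-1, stromal subunits on which ferredoxin docks, differed by -0.96 ± 0.11 and -0.85 ± 0.11. PSAF and PSAO of the same photosystem passed as well, but PSAO was 0.23 in the authors' deposited table and 0.04 by quantile. In photosystem II, PSBY differed by -0.95 ± 0.12, the extrinsic oxygen-evolving subunit PSBQ-2 by -0.90 ± 0.11 and the reaction centre protein PSBW by -0.73 ± 0.10, and the manganese-stabilising PSBO1 passed too.

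Among antenna proteins, LHCA4 of photosystem I differed by -0.72 ± 0.12 and LHCB4.1 of photosystem II by -0.69 ± 0.11, but LHCA4 was 0.22 in the authors' deposited table and LHCB4.1 was 0.01 by quantile. The antenna gene CAB3 had -0.96 ± 0.17 and missed the threshold (limma adjusted p = 0.0565). RCA, the activase of Rubisco, differed by -0.85 ± 0.12, and HCEF1, a plastid fructose bisphosphatase, by -0.67 ± 0.11. In each array the median of the 65 loci, relative to the Col mean, was -0.05, 0.08 and -0.06 in Col and -0.62, -0.57 and -0.47 in gvs1-1, so the genotypes did not overlap in it under the 75th-percentile scaling.

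**Figure D3:**
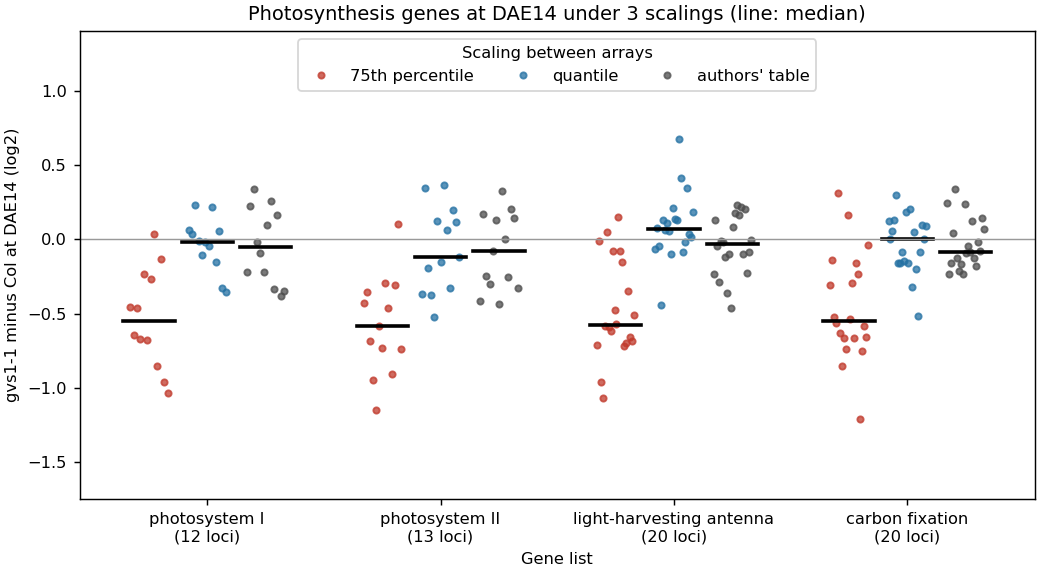
Difference of gvs1-1 minus Col at DAE14 (log2, vertical axis) for the members of 4 lists under 3 scalings between arrays, 1 point per locus, with a black line at the median. The medians lie near -0.6 under 75th-percentile scaling and near 0 under quantile normalization and in the authors' table.

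Jasmonate genes leaned the other way without passing. Of 43 measured genes in 4 lists (synthesis, turnover, signalling, and response shared with ethylene), 38 had a positive difference and the median was 0.47. None passed the adjusted threshold by limma. An unadjusted p under 0.05 was found for 17, all higher in gvs1-1, and 18 had all gvs1-1 values above all Col values, against 6.62% and 12.2% of all loci. Of the 43 genes, 14 had in the authors' deposited table an unadjusted p under 0.05 with the higher value in gvs1-1 (8.84% of all its loci) and 1 with the lower. The median stayed above 0 by quantile (0.52), in the authors' deposited table (0.37), for gvs1-1 replicate 3 within scan day 1 (0.32) and with slide as a block (0.61). Per array the median of the 43 genes relative to the Col mean was -0.16, 0.18 and 0.01 in Col and 0.44, 0.67 and 0.32 in gvs1-1.

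In synthesis, OPR3, the peroxisomal reductase of the pathway, read 1.998, 2.69 and 2.53 in Col and 3.16, 3.12 and 3.12 in gvs1-1 (difference 0.73 ± 0.18; limma adjusted p = 0.132). The lipoxygenase LOX4 had a difference of 1.12 ± 0.32 and LOX2, the abundant leaf lipoxygenase, 0.37 ± 0.11. LOX6 was the 1 jasmonate gene with all gvs1-1 values below all Col values, at -0.30 ± 0.13; it is named for that, after its values were seen. In turnover, the amidohydrolase IAR3 had 0.68 ± 0.16. The sulfotransferase gene ST2A was above background on all gvs1-1 arrays and on no Col array, and its measured values overlapped.

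In signalling, the repressor gene TIFY7, which encodes JAZ9, read 2.05, 2.42 and 2.43 in Col and 3.09, 3.10 and 2.94 in gvs1-1. The gvs1-1 arrays lay above all Col arrays, and the difference was 0.74 ± 0.16 (limma adjusted p = 0.105, the smallest of the 43). JAZ7, above background on 2 of the 3 Col arrays, had 2.50 ± 0.75, and the transcription factor MYC3 0.29 ± 0.11. Of the genes that respond, VSP1 and VSP2, vegetative storage proteins and classical jasmonate markers, had 2.22 ± 0.64 and 2.19 ± 0.65. VSP2 read -0.86, -1.43 and -0.14 in Col and 1.74, 1.46 and 0.92 in gvs1-1. The defensin gene PDF1.2 had the largest difference and a wide spread: 0.48, 0.90 and -0.55 in Col and 4.32, 1.56 and 4.64 in gvs1-1 (3.23 ± 1.13; limma adjusted p = 0.208).

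**Figure D4:**
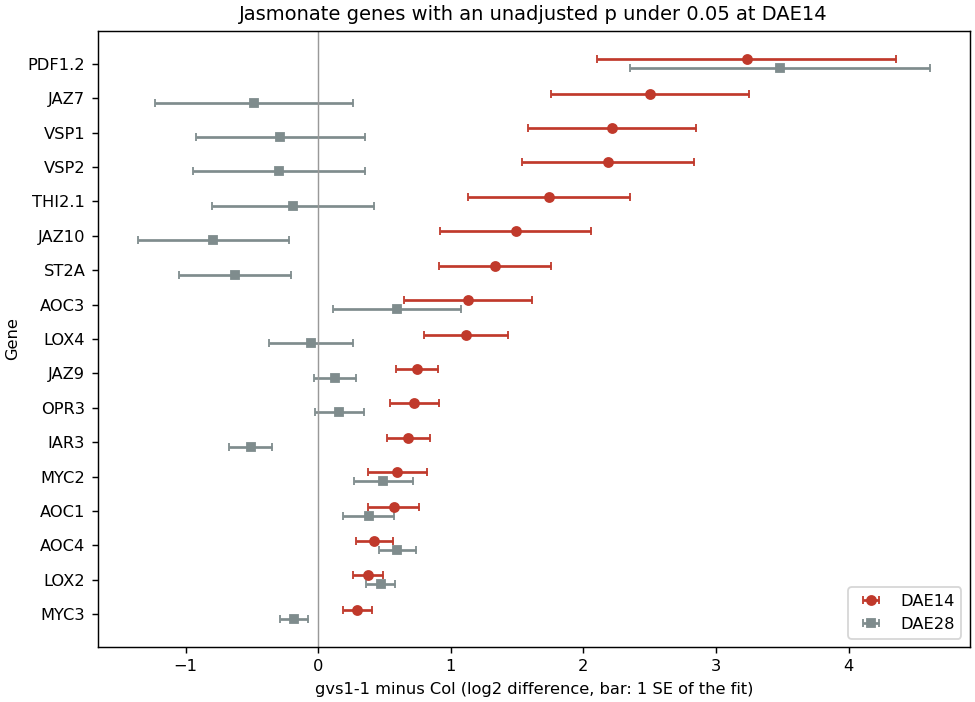
Difference of gvs1-1 minus Col (log2, horizontal axis, bars of 1 SE of the fit) at DAE14 (circles) and DAE28 (squares) for the 17 jasmonate genes with an unadjusted p under 0.05 at DAE14. That choice keeps only circles that lie far from 0 for their SE, in either direction. Only PDF1.2 lies above 3 at both stages, and none of the 17 passed the adjusted threshold at DAE14.

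Other lists held few differences. Of 19 measured genes of glucosinolate synthesis none passed; CYP79B2 and CYP79B3, which turn tryptophan into its oxime, had 0.86 ± 0.24 and 0.57 ± 0.13, and the regulator MYB28 had -0.41 ± 0.15. Of 18 clock genes none passed, and LHY, a morning transcription factor, read 1.39, 0.76 and 1.24 in Col and -0.33, -1.05 and 0.15 in gvs1-1 (difference -1.54 ± 0.33; limma adjusted p = 0.105), with -0.54 ± 0.20 for its partner CCA1. Of 23 senescence genes none passed, 17 were positive and the median was 0.19. WRKY53 (1.24 ± 0.54), BCB (1.27 ± 0.38) and SRG1 (1.53 ± 0.63) had the smallest p among them. The values of the genotypes overlapped for SRG1 and not for WRKY53 or BCB. Of 12 flavonoid and anthocyanin genes none passed, with PAP1, the MYB activator of anthocyanin synthesis, at 1.49 ± 0.44.

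None of the 19 salicylic acid and immunity genes passed, with a median of -0.17. Their median per array relative to the Col mean was -0.43, 0.33 and 0.09 in Col and -0.75, 0.48 and 0.45 in gvs1-1. The arrays of both genotypes thus disagreed among themselves, with replicate 1 lowest and replicate 2 highest in each genotype. Among abscisic acid and water deficit genes 0 of 16 passed, and among redox genes 0 of 20. Their medians were -0.14 and 0.17, with 6 and 14 positive differences. In the first list ABI1, a phosphatase of abscisic acid signalling, had -0.63 ± 0.17, while RD20 had 0.69 ± 0.25. In the second the catalase genes CAT1 and CAT2 had -0.62 ± 0.16 and -0.66 ± 0.17. The 2 other probes of CAT1 had a mean difference of 0.28. AGC2-1 of the redox list, above background on no Col DAE14 array, had 1.33 ± 0.35.

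The leaf label was checked with marker genes. All 5 mesophyll markers were measured, while none of 5 root markers and none of 4 seed markers was among the tested loci. Of 11 flower and meristem markers 4 were measured, none passed, and their median was 0.10. No marker of guard cells (7 measured), vascular tissue (9) or epidermis and trichomes (7) passed, with medians of -0.02, 0.06 and -0.12. Of the mesophyll markers, which overlap the photosynthesis lists, only RCA passed, and the median was -0.58, against 0.13 by quantile. In leaf RNA fewer cells of a type and less RNA per cell cannot be told apart.

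At DAE28, 19 of the 60 loci differed in the same direction (limma adjusted p under 0.05), where 17.8% of all loci were higher and 15.3% lower in gvs1-1. The DAE28 arrays do not enter the DAE14 difference itself, but they share in the estimate of the spread behind the DAE14 calls, so both sets of calls are not independent. At DAE28 too each slide held 1 genotype. The gvs1-1 arrays lay on slide 3, Col replicate 1 on slide 1, and Col replicates 2 and 3 on slide 2. The slide layout therefore limits the DAE28 values as well. The 19 loci with the same direction were 8 of the 9 higher loci and 11 of the 51 lower loci. Another 20 loci were lower at DAE14 and higher at DAE28, and 21 did not pass at DAE28. AT3G55920 and AT3G05170 were above background on no Col DAE28 array either and were at least 81.9-fold and at least 68.8-fold higher in gvs1-1 there. In the authors' deposited table their DAE28 differences were 3.32 and 3.05. Both lie under these bounds, which hold for the processed signal alone. From the processed signal, MRD1 had 4.78 ± 0.64 and CYP90D1 1.79 ± 0.24, and AT3G28899 had -5.54 ± 0.60. AT5G03090 had 3.97 ± 0.42 with 1 Col DAE28 array above background. AT3G46700 was the exception among the higher loci, with -0.95 ± 0.45 at DAE28. The photosynthesis lists stood on the other side of 0 at DAE28 under the 75th-percentile scaling, with a median of 0.71 and 53 of 65 loci higher in gvs1-1. The jasmonate median was -0.18 there, with 4 genes higher and 4 lower. The change of the genotype difference between the stages, the interaction, passed for 39 of the 60 loci and for 18.6% of all loci. It contains the DAE14 difference by which the 60 were chosen, so nothing is read from the excess.

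**Figure D5:**
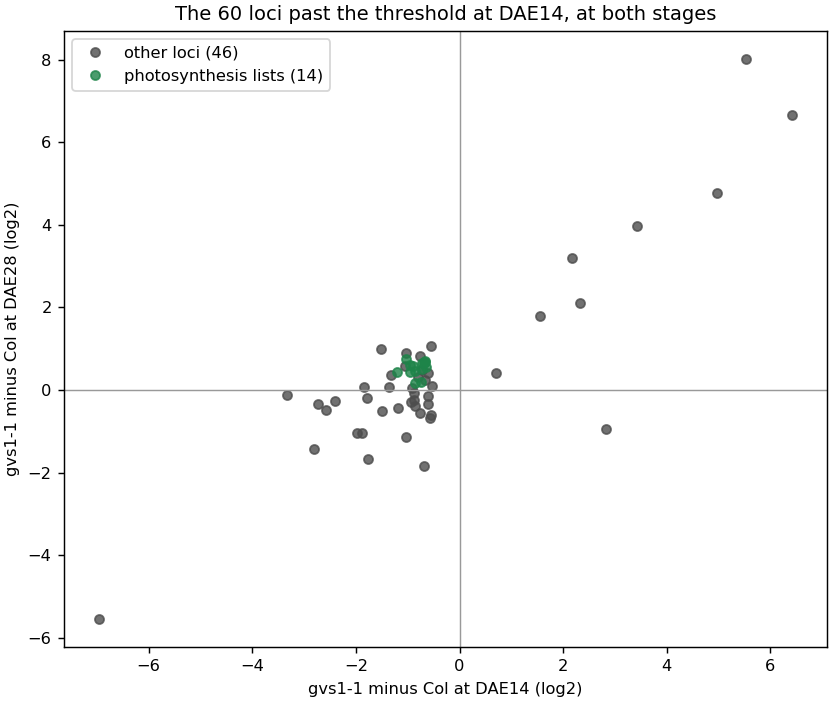
Difference of gvs1-1 minus Col (log2) at DAE14 (horizontal axis) and DAE28 (vertical axis) for the 60 loci past the threshold at DAE14, with the 14 photosynthesis loci in green. Points at the far right lie high at both stages, AT3G28899 lies at the lower left, and all 14 photosynthesis loci lie left of 0 and above 0.

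The authors' deposited table, a second readout of the same arrays with 1 value per locus, gave 36 loci in the same limma fit, 0.169% of 21266, of which 14 were higher and 22 lower. There 17 loci passed in both, among them AT3G55920 (4.08), AT3G05170 (2.76), MRD1 (4.02), CYP90D1 (1.42), AT3G28899 (-4.76), HKL1 (-1.23), NSP2 (-0.77), SIGE (-1.02) and IAA12 (-0.45). Of the 60 loci 58 were present in the table and 54 had the same sign. Its values for dim loci were compressed: AT5G03090 was 3.42 from the scanner files and 1.03 in the table. The table passed 7 loci that were not among the loci tested from the scanner files, such as the pseudogene AT5G35935 (-2.74) and the retrotransposon-derived pseudogene SADHU3-2 (-2.72), and 12 that were tested and missed the threshold, such as AT1G35617 (2.11 in the table; 4.60 with limma adjusted p = 0.0540 from the scanner files). Among the called loci 23 had further probes: in 18 every further probe had the same sign, in 19 their mean difference was smaller than that of the brightest probe, and in none was it of the opposite sign.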

How the data were processed

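Per the file headers, the scanner files were made with Agilent Feature Extraction 11.5.1.1 from 1-colour arrays; gProcessedSignal is its intensity after background correction, as deposited. The authors' deposited table holds log2 values per locus, close to the log2 median signal; no source used here states its normalization. Of 43603 probes, those without a locus (9255) and those with an outlier mark (166) were left out, and a probe had to be well above background throughout the 3 arrays of some group. This left 26801 probes, of which the brightest per locus was kept. Log2 intensity minus each array's 75th percentile was fitted with limma 3.58.1 in R 4.3.3 (lmFit, eBayes) over 12 arrays with 4 group means, and values are differences ± SE. The test was checked on simulated data. No spot was saturated.

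Named genes followed a rule: annotated loci past the threshold with the largest differences and no overlap (up to 12 higher and 15 lower), loci with bounds (up to 4 per direction), loci past the threshold in both readouts, and up to 3 members per list with the smallest p. Other loci past the threshold were named to complete a list. Members, lists and tests were chosen with earlier results of these data known. The fit over 12 arrays did not pair samples by replicate number. Names come from the RefSeq annotation of TAIR10.1, used for names and gene order only.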

Additional observations from a re-analysis of the deposited data

Results flagged for a closer look

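The genotype difference changed between the stages, by the interaction test of limma (adjusted p under 0.05) in the named genes given here. Each value here is the difference of gvs1-1 minus Col at DAE28 minus that at DAE14, on the log2 scale. The change passed for 18.6% of all loci. It contains the DAE14 difference by which most of these genes were chosen.

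Photosynthesis genes moved up: FBA2 by 1.63, PSAN by 1.80, PSAE-1 by 1.56, PSBQ-2 by 1.48, PSBY by 1.38, HCEF1 by 1.37, PSAF by 1.35, LHCA4 by 1.36, LHCB4.1 by 1.33, PSAD-1 by 1.30, PSBW by 1.24, PSAO by 1.201, RBCS1A by 1.14, CAB3 by 1.103, RCA by 1.03, CAB1 by 0.97 and PSBO1 by 0.94. Other genes lower at DAE14 that moved up were AT3G28550 (2.52), AT1G31920 (1.92), NSP2 (1.68), AT5G67390 (1.64), FRO6 (1.63), AT2G07732 (1.60), HKL1 (1.43), THI1 (1.22), GGT1 (1.13), AT3G51950 (1.01), GATA10 (0.96), WNK6 (0.92), FP6 (0.80), MIPS1 (0.64), IAA12 (0.61) and AT3G01300 (0.48). KMS1 moved down, by -1.15.

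Several values rest on readings not above background in 1 or both genotypes at DAE14, so their size has no exact meaning. They are TIM23-3 (3.20), AT3G05170 (2.47), ARI13 (2.40), AT3G50540 (2.14), AT2G24780 (2.096), AT5G39970 (1.92), AT3G08810 (1.58), ST2A (-1.96), AGC2-1 (-2.64) and AT3G46700 (-3.77). For AT3G05170 the mean signal in gvs1-1 was -1.62 at DAE14 and -1.43 at DAE28, and the reading in Col, not above background at either stage, was -7.16 and -9.44.

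Genes that did not pass at DAE14 changed in both directions. BR6OX2 moved by 2.03, LHY by 1.71, CAT2 by 0.94, MYB28 by 0.72 and ZTL by 0.61. The values were negative for SRG1 (-4.14), PAP1 (-3.25), RD20 (-2.43), BCB (-2.09), IAR3 (-1.19) and CYP79B2 (-1.08), which were higher in gvs1-1 at DAE14 and lower at DAE28 in value.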

How the results depend on the processing

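The number of loci past the threshold was the least stable result, and the cause was not tested. Against 9 higher and 51 lower loci, the counts were 14 and 22 in the authors' deposited table, 20 and 26 by quantile normalization, 4 and 15 by median centring, 1 and 4 after normexp background correction, 4 and 16 with no filter on dim probes, 4 and 50 with loci above background on all 12 arrays, and 7 and 25 with the mean over probes. The share of higher loci was 38.9% in the table, 43.5% by quantile, 21.1% by median centring and 20% after normexp. With batch terms they were 3 and 3 (slide as a fixed block), 2 and 4 (slide as a random block), 2 and 0 (scan day as a fixed block) and 4 and 0 (scan day 1 alone, with 1 gvs1-1 array assumed to vary like the others). The 6 DAE14 arrays alone gave 2 and 0, with 3749 loci at an unadjusted p under 0.05 by limma; scan day as a block gave 1345 such loci and scan day 1 alone 1566. The replicate block gave 5 and 9. Correlations between Col and gvs1-1 samples of the same number were 0.51, 0.38 and -0.10. Between samples of different numbers they ran from -0.49 to 0.24. With 3 samples a side, these values cannot decide whether the numbers pair the samples. Alternatives added after seeing the data were the table with 6 arrays (2 and 6) and with slide as a block (36 and 23). Leaving out 1 array gave 3 to 37 higher and 2 to 237 lower loci.

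AT3G55920 and AT3G05170 lost the threshold after normexp alone (3.51, adjusted p = 0.123, and 2.16, adjusted p = 0.274) and were not tested with the filter for all 12 arrays. Of the loci called at DAE14, the number that differed the same way at DAE28 was 19, and 11 with all 12 arrays above background, 12 with slide as a block and 11 with slide as a block in the table; without 1 array it was 15 to 20. The interaction passed in 39, and in 24 after normexp, 22 with slide as a block, 21 with a scan day term, 23 within scan day 1 and 18 in the table with slide as a block; without 1 array it was 36 to 44.

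Signs turned in the table for OST1 (0.0194, also with 6 arrays, and 0.16 with slide as a block), LHCA4 (0.22), PSAO (0.23), THI1 (0.0758) and RBCS1A (0.0418), and with slide as a block in the table for AT3G50540 (0.0249), AT3G06830 (0.0345) and LTI65 (0.51). By quantile they turned for LHCB4.1 (0.0133), PSAO (0.0383), RBCS1A (0.13) and CAB1 (0.13). The number of arrays and the signal over background limit the precision: 17833 of the tested loci were above background on all arrays of a DAE14 group and 644 on no DAE14 array.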

Other observations

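Chromosome 3 held 19 of the 60 loci, 31.7% of them, and 20% of the tested loci; 13 of the 29 loci that differed by at least 2-fold were on it. AT3G55890 (-1.88) and AT3G55920 (6.42) lie 3 loci apart in the gene order, and KCR1 (-0.55) and PSBY (-0.95) are neighbours. Within 8 loci on either side of AT3G55920, 10 other loci were tested and only AT3G55890 passed; AT3G55910, next to it, had 1.30 ± 0.40 and JRG21, 6 loci away, 3.35 ± 0.86. The same window held no passing locus around AT3G05170 (12 tested), MRD1 (11 tested) or AT3G28899 (5 tested). These are descriptions of position, with no test.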
